A study of Mus musculus with 18 samples.

Results

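Deletion of the orphan nuclear receptor Esrrb was examined in mouse embryonic stem (ES) cells held in CH, the inhibitor CHIR99021 of the kinase Gsk3. The comparison was chosen by its labels and holds 6 of the 18 RNA-seq libraries of the series, 3 from Esrrb null and 3 from Esrrb floxed cells. Both groups are Esrrb fl/fl ES cells that carry the tamoxifen-inducible recombinase MerCreMer, at passage 25, with Acr-EGFP transgenic mice given as the strain. Esrrb null cells had received 4-hydroxytamoxifen (4OHT) for 1 day to excise the floxed part of Esrrb, and Esrrb floxed cells had not. Both were then grown in 3D in Matrigel for 24 h in N2B27 medium with 3 µM CH, after maintenance in 2i/Lif. E14 ES cells (strain 12910la, passage 20) grown in Matrigel for 48 h with 3 µM CH or with its solvent DMSO served as a second comparison, with 3 libraries in each group.

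The question was which gene programmes are gained and lost when Esrrb is removed while Gsk3 stays inhibited. The null cells come from 1 floxed line and were treated as populations. No 4OHT-treated line without the floxed allele was analysed here, so the effects of 4OHT itself, of Cre activity and of the loss of Esrrb cannot be told apart. In bulk RNA, fewer cells of a type and less RNA per cell cannot be told apart either.

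Gsk3 marks β-catenin for destruction, so its inhibitor raises β-catenin and switches on Wnt target genes. In ES cells this also lifts the repression that Tcf7l1 exerts on genes of naive pluripotency, of which Esrrb is a central one. Esrrb binds extended half-sites of the estrogen receptor element, often together with Nanog, Oct4 and Sox2, and maintains self-renewal in Gsk3-inhibited cultures. Naive cells that leave this state pass through a formative epiblast state and can then take up epithelial polarity or, under Wnt and Nodal signals, a primitive streak identity.

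The deleted gene was measured first. Esrrb (ENSMUSG00000021255, chr12:86361117-86521628, plus strand, GRCm38) had 1211, 1333 and 1250 counts in the 3 Esrrb null libraries and 2680, 2146 and 2109 in the Esrrb floxed libraries. On the CPM scale (counts relative to the total of each library, which is adjusted by the trimmed mean of M-values) these were 58.9, 63.8 and 59.8 against 142, 109.9 and 109. The groups did not overlap, and the mean was 60.8 ± 2.6 CPM (SD, n = 3) in null and 120.5 ± 19 CPM (SD, n = 3) in floxed cells. The log2 fold change was -0.98 ± 0.08 (SE; edgeR quasi-likelihood test with the replicate number as block, Benjamini-Hochberg adjusted p = 3.2e-07), just short of the threshold of 1 used for calls; it passed that threshold without replicate 2 (-1.08) or replicate 3 (-1.03). Counts were summed over all exons of the gene, so a transcript that lacks the excised exons and a transcript from an unexcised allele are counted alike. Esrra, the related receptor that was also tested, had a log2 fold change of 0.01.

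The 6 libraries held between 19915222 and 20140699 counts. Of the transcripts that define ES cells, Pou5f1 (Oct4) was at 825 to 878 CPM in null and 1169 to 1268 CPM in floxed libraries. The other markers used for ES cells were present in both groups and fell further in null cells. Klf2, Klf4, Nanog and Tfcp2l1 had log2 fold changes of -2.28, -1.81, -0.98 and -0.71, and Sox2, Zfp42 and Sall4 are given below. The libraries numbered 1 stood apart from numbers 2 and 3 in both groups: mitochondrial genes took 2.64% and 3.21% of their counts and 1.97% to 2.07% of those of the other 4. The mean chi-square per gene between libraries 2 and 3 was 2.22 in null and 1.46 in floxed cells, against 11.8 to 15.6 for pairs that included library 1. Each replicate number was therefore also left out in turn for the counts of genes and of list members called.

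Of 14893 genes tested, 2005 were higher in Esrrb null cells, which is 13.5% of all genes tested, and 632 were lower, 4.24%. For a call the adjusted p had to be under 0.01 and the log2 fold change beyond 1 in either direction. The median log2 fold change was 1.71 among the genes called higher and -1.45 among those called lower, and 755 and 136 of them lay beyond 2. The CPM of the groups overlapped in 15 of the 2005 and 9 of the 632, so separate groups were usual among called genes. Counts in the gene lists below are to be read against the shares of 13.5% and 4.24%. The excess of higher calls lay among genes of low and medium level. When the genes were divided by mean CPM into 5 classes of equal size, 721 were higher and 239 lower in the lowest class and 52 were higher and 54 lower in the highest. Scaling by total counts alone shifted the median of all genes from 0.00 to 0.11 and gave 2255 higher and 491 lower, so that higher genes were 82.1% rather than 76.0% of the calls.

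**Figure D1:**
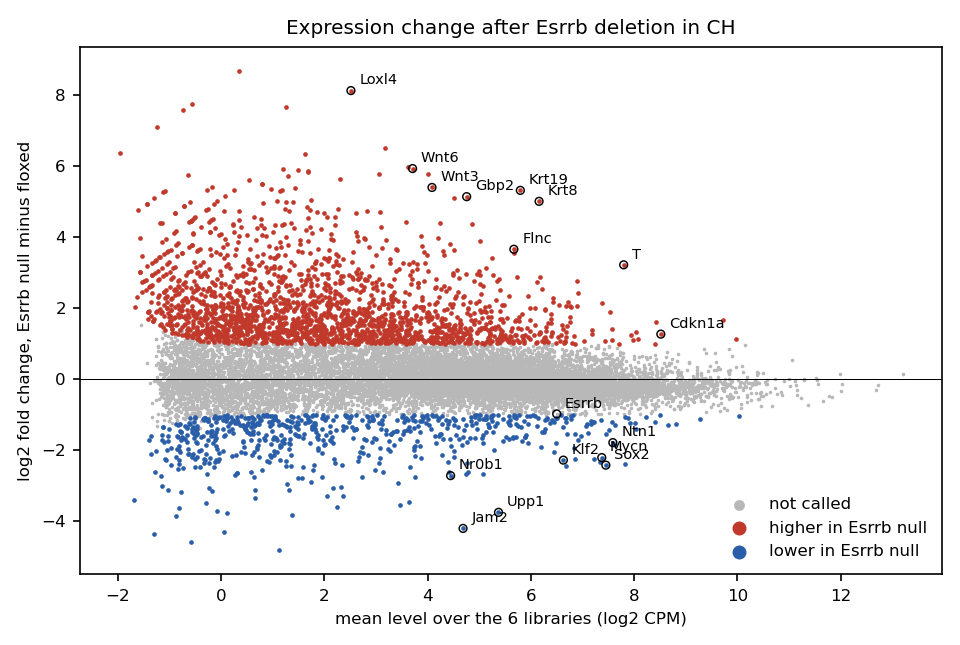
Each point is 1 of the 14893 genes tested, with the mean level over the 6 libraries (log2 CPM) on the x axis and the log2 fold change, Esrrb null minus floxed, on the y axis; red and blue points were called higher and lower. Calls above 0 spread widest at low levels, while Sox2, Mycn and Ntn1 are among the abundant genes called lower.

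The 12 genes with the largest rise among those with a mean of at least 100 counts belonged to several programmes. They were the lysyl oxidase Loxl4, the butyrophilin Btn1a1, the ubiquitin ligase Trim67, the Wnt ligands Wnt6 and Wnt3, Synpo2l (an actin-associated protein), the carboxypeptidase Cpz, Fgf8, the keratins Krt19 and Krt8, and the GTPases Gbp2 and Gbp2b. Their fitted log2 fold changes ran from 5.01 for Krt8 to 8.13 for Loxl4. Loxl4 had 712 counts over the 3 null libraries and 2 over the floxed ones, a ratio of 329 with a 95% counting interval of 90.8 to 2724 (Clopper-Pearson on the summed counts, which covers counting error only). Cpz, which binds Wnt proteins through a frizzled-like domain, was at 33.1, 30.2 and 31.3 CPM in null and at 0.478, 0.564 and 0.672 CPM in floxed libraries.

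The 12 largest falls were led by Jam2, a junctional adhesion molecule, at 2.38, 3.06 and 2.44 CPM in null against 62.7, 41.7 and 42.4 CPM in floxed cells (log2 fold change -4.20 ± 0.13 SE, adjusted p = 2.2e-10, edgeR). Uridine phosphorylase Upp1 followed at -3.75, then the long noncoding RNA Platr7 at -3.54, Accsl at -3.47, the nucleotide receptor P2ry2 at -2.92, Dnajc6 at -2.76, Pkd1l2 at -2.75, the nuclear receptor Nr0b1 at -2.71, Sox13 at -2.68, the transcriptional regulator Aire at -2.67, the actin nucleator Cobl at -2.60 and Egfl6 at -2.60. Aire showed how far library 1 could lie from its partners: it had 2.34, 14.9 and 10.9 CPM in null and 21.7, 78.9 and 73.5 CPM in floxed libraries, lower within each pair. Among the 340 lincRNAs tested 49 were lower and 21 higher. Lower calls were also more frequent among 315 processed pseudogenes (21 lower, 4 higher) and 301 genes of unsettled type (TEC; 19 lower, 8 higher). The 270 antisense genes had 20 in each direction and the 168 processed transcripts 13 higher and 11 lower. Of 13198 protein-coding genes 1929 were higher and 493 lower.

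**Figure D2:**
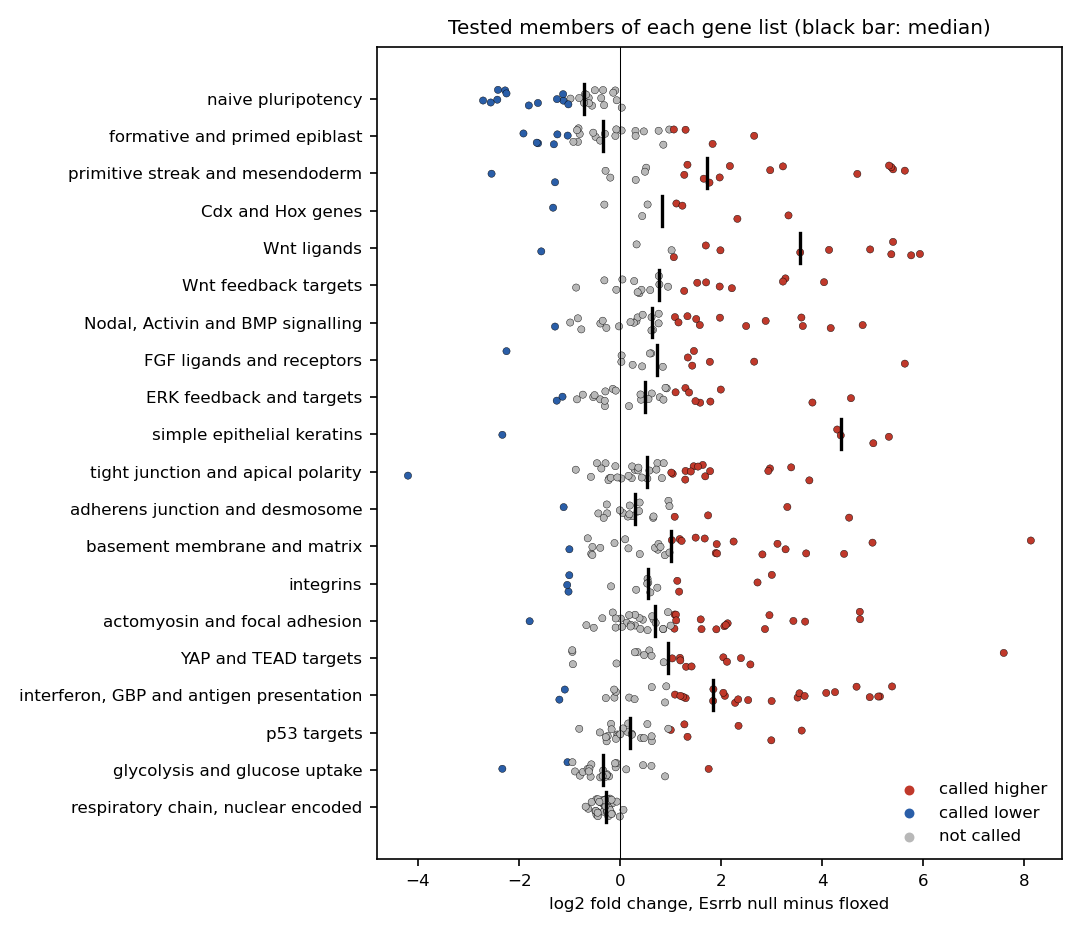
Each point is a tested member of the gene list named on the y axis, at its log2 fold change, Esrrb null minus floxed (x axis); colour gives the call and the black bar the list's median. The naive pluripotency list lies at or below 0 with 1 exception, and the Wnt ligand, keratin and interferon lists have medians of 3.56, 4.36 and 1.84.

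Among genes of naive pluripotency the calls went down only. All 30 listed genes were tested, 12 were called lower and none higher by edgeR and by DESeq2, none was higher at an unadjusted p under 0.05, and 29 had a negative log2 fold change, with a median of -0.71 against 0.00 over all genes tested. The summed level of the list was 3910.3 to 4220.1 CPM in null and 7104 to 7598 CPM in floxed libraries. Esrrb itself is not in the list. The 12 called lower were Klf2, Klf4, Nr0b1, Nr5a2, Sox2, Fgf4, Tcl1, Tdh, Gbx2, Tet2, Mybl2 and Lifr.

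Klf2, a zinc finger factor that sustains the naive state, was at 31.0, 37.8 and 32.9 CPM in null and at 165, 159 and 169 CPM in floxed cells, a 4.85-fold difference (log2 -2.28 ± 0.06 SE, adjusted p = 1e-10, edgeR). Sox2, a partner of Oct4, was at 43.4, 64.3 and 59.2 CPM against 301, 284 and 299 CPM (log2 -2.42 ± 0.09 SE, adjusted p = 7.7e-10, edgeR). In both genes every null library lay far below every floxed one. Nr5a2, a nuclear receptor that can stand in for Oct4 in reprogramming, was at 34.1, 31.2 and 29.6 CPM against 220.0, 148 and 151 CPM (log2 -2.43). Nr0b1, a corepressor of nuclear receptors, was at 7.30, 5.26 and 4.78 CPM against 45.5, 33.4 and 34.7 CPM, and Fgf4, the FGF that ES cells make, was at 38.6, 45.7 and 37.1 CPM against 209, 187 and 182 CPM. The groups were separate in each of these 3 genes as well.

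Other naive factors moved less. Nanog was at 111, 108 and 95.1 CPM in null and 259, 177 and 191 CPM in floxed libraries, a log2 fold change of -0.98 ± 0.07 (SE) that passed the p threshold (adjusted p = 2.2e-07, edgeR) and missed that of fold change; without replicate 2 it was -1.13. Of the longest Nanog transcript 20.6% matches other genes. Tfcp2l1 stood at -0.71, Zfp42 (Rex1) at -0.62, Sall4 at -0.67 and Pou5f1 at -0.50. Klf5 and Tbx3 had values of -0.10 and -0.07, with adjusted p above the threshold. Lifr, the receptor subunit for Lif, was lower at -1.63, while the kinases that act beneath it, Jak1 and Jak2, were higher at 1.19 and 2.31, and the transducer Stat3 had a value of 0.09. Over the 18 genes of the Lif and Stat3 list 3 were higher and 3 lower, 16.7% each, against 13.5% and 4.24% of all genes.

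**Figure D3:**
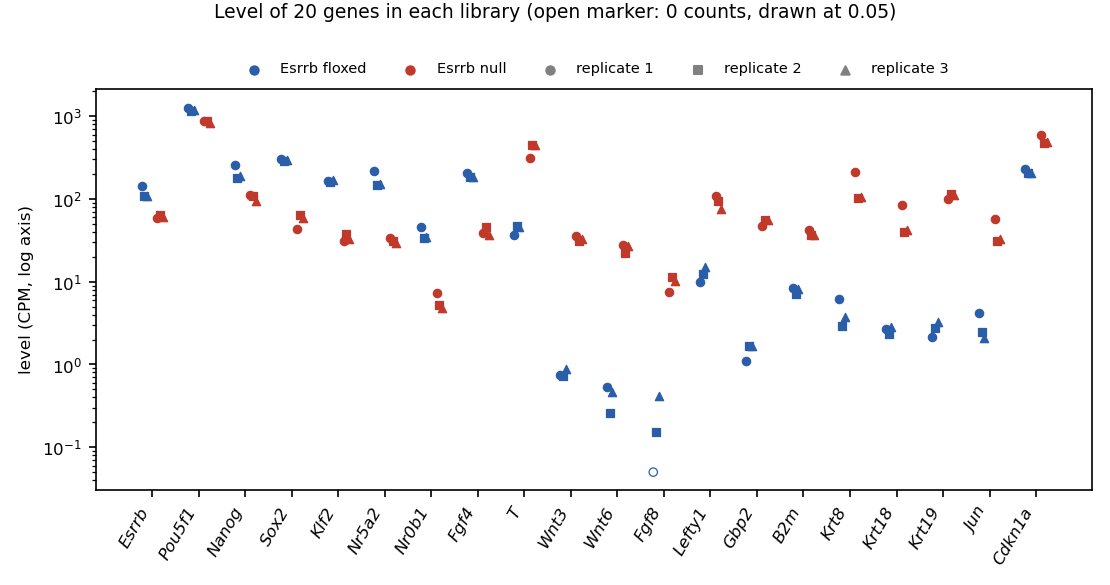
Level of 20 genes in each of the 6 libraries (CPM, log axis), with Esrrb floxed in blue, Esrrb null in red and the marker shape giving the replicate number; an open marker is a library with 0 counts. For every gene drawn the 3 null and the 3 floxed libraries are separate. The genes were chosen with their values known, and separate groups were usual among called genes.

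Formative and primed epiblast genes went both ways. Of 28 tested, 4 were higher (14.3%, near the 13.5% of all genes) and 6 lower (21.4%, against 4.24%), with a median of -0.35. The primed marker Fgf5 was higher, at 7.88, 22.2 and 19.6 CPM in null and 0.797, 3.69 and 3.52 CPM in floxed cells (log2 2.65 ± 0.14 SE, adjusted p = 1.3e-08, edgeR), as were Wnt8a, Cldn6 and the carbonic anhydrase Car4. The transcription factors of this state were among the lower genes: Otx2 was at 14.3, 32.1 and 22.2 CPM against 52.4, 79.1 and 75.8 CPM (log2 -1.62), and Foxd3, Tcf15, Zic5, Grhl2 and Zic2 had log2 fold changes of -1.65, -1.91, -1.31, -1.24 and -1.04. The de novo methyltransferase Dnmt3b had a log2 fold change of -0.80 and its cofactor Dnmt3l one of -0.83. Sox3, at 0.85, and Sall2, at 0.97, missed the fold threshold in the other direction.

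Genes of the primitive streak and mesendoderm were higher. Of 32 listed genes 20 passed the filter on low counts, 13 of these were called higher and 2 lower, and the median was 1.71. Members nearly absent from floxed cells, such as Fgf8 and Aplnr, passed it only through the null group, so no fall could be called for them. The list shares Wnt3 and Wnt3a with the Wnt ligands and T and Sp5 with the feedback targets described next. T (Brachyury), the T-box factor that defines the streak, was at 313, 448 and 446 CPM in null and 36.5, 46.5 and 45.8 CPM in floxed cells, a 9.32-fold rise (log2 3.22 ± 0.05 SE, adjusted p = 9.1e-13, edgeR). Mixl1, a homeobox factor of the streak, was at 9.20, 13.6 and 12.6 CPM against 0.425, 0.307 and 0.621 CPM (log2 4.69), and Fgf8, made by streak cells, was at 7.45, 11.5 and 10.2 CPM against 0, 0.154 and 0.414 CPM (log2 5.63). The posterior factor Evx1 (1.77), the Wnt-responsive factors Sp5 (1.97) and Sp8 (1.65), Lefty2 (1.33), Pdgfra (2.17) and Apln (2.97) were higher too. Aplnr, the receptor for Apln, had 145 counts over the null and 3 over the floxed libraries, a ratio of 44.7 with a counting interval of 15.0 to 219.

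The streak list did not move as a whole. Kdr, the receptor of endothelial precursors, was lower at -2.55 and Bmp4 at -1.29. Eomes, which specifies mesendoderm, was at 13.7, 26.8 and 23.7 CPM in null and 15.7, 28.1 and 29.6 CPM in floxed cells (log2 -0.20, adjusted p = 0.039, edgeR), with overlapping groups. Sox17, Foxa2, Gsc and Mesp1, which mark endoderm and nascent mesoderm, did not reach the filter on low counts. Of the 28 Cdx and Hox genes listed 8 were tested, 4 higher and 1 lower. Hoxd1 stood at 2.32, Hoxb1 at 1.23 and Cdx2 at 1.11, while Cdx4 was lower at -1.33. Without replicate 3 the value of Cdx2 fell to 0.84, and without the replicate block Hoxb1 had an adjusted p of 0.040.

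Wnt proteins are secreted, bind Frizzled and Lrp receptors and stabilise β-catenin, the same step that CH forces from within. Of 19 listed ligands 13 were tested, and 10 of them were higher and 1 lower, with a median log2 fold change of 3.56, or 2.21 when each gene with at most 3 counts in every floxed library was set against 3 counts per library. The filter kept genes with enough counts in 1 group alone. Wnt3a, Wnt9a, Wnt10a and Wnt10b, nearly absent from floxed cells, passed only through the null group, so no fall could be called for them. The 10 higher ligands and both medians include them. Wnt3, the ligand needed for streak formation, was at 35.2, 31.1 and 33.3 CPM in null and 0.744, 0.717 and 0.879 CPM in floxed libraries, a 42.2-fold rise (log2 5.40 ± 0.13 SE, adjusted p = 4e-11, edgeR). Wnt6 was at 28.1, 22.3 and 27.0 CPM against 0.531, 0.256 and 0.466 CPM, a 61.0-fold rise (log2 5.93 ± 0.16 SE, adjusted p = 8.2e-11, edgeR). Neither gene had a floxed library near any null one.

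Several other ligands came up from the limit of detection. Wnt3a had 238 counts over the null and 5 over the floxed libraries, a ratio of 44.0 with a counting interval of 18.6 to 137, and Wnt10b had 79 against 1, a ratio of 73.1 with an interval of 12.7 to 2922. Wnt7b, Wnt4 and Wnt11 had log2 fold changes of 4.13, 1.98 and 1.69. Per kilobase of exon the order of the ligands was different. In floxed cells Wnt5b (22.7 CPM per kb) and Wnt8a (20.4 CPM per kb) led and no other ligand reached 1. In null cells Wnt8a was at 42.3, Wnt5b at 28.6, Wnt6 at 11.8 and Wnt3 at 10.8 CPM per kb, so the ligands with the largest fold changes stayed below the pair that was already present. Wnt5b itself was not called (log2 0.32), and Wnt5a, which signals mostly without β-catenin, was the one lower, at -1.56; without the replicate block its adjusted p was 0.010 and the call was lost.

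**Figure D4:**
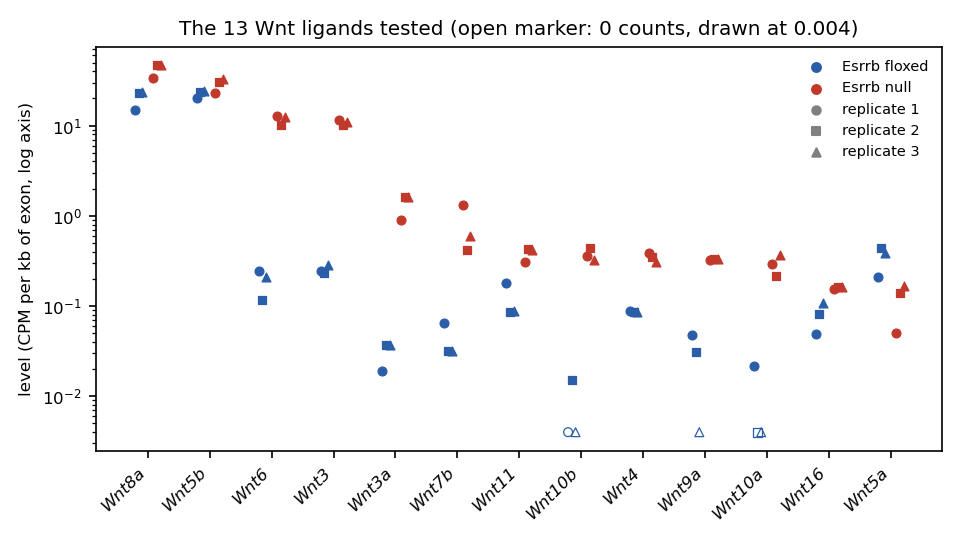
Level of the 13 Wnt ligands tested, in CPM per kilobase of exon on a log axis, ordered by their mean in Esrrb null cells, with floxed libraries in blue, null libraries in red and the marker shape giving the replicate number; an open marker is a library with 0 counts. Wnt3 and Wnt6 moved from below 1 to above 10 CPM per kb, and Wnt8a and Wnt5b were above 10 in both groups.

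Some of the higher ligand genes lie side by side, in pairs chosen after their values were seen. Neighbours of the other ligands are not given here. Wnt6 (chr1:74771892-74785322) and Wnt10a (chr1:74791516-74804179) are neighbours on the plus strand, and both were higher. Wnt3a (chr11:59248033-59290752, minus strand) and Wnt9a (chr11:59306928-59333552, plus strand) are another pair of neighbours, and both were higher, Wnt9a with 68 counts over the null and 5 over the floxed libraries. Positions are those of GRCm38.

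Of 20 feedback targets of Wnt/β-catenin signalling tested 8 were higher and none lower (none by DESeq2 either, and 2 lower at an unadjusted p under 0.05), with a median of 0.77. The antagonists Kremen2 (log2 4.03) and Nkd1 (3.27), which act on Lrp6 and Dishevelled, the receptor-clearing ligase Rnf43 (2.21), Dkk1 (1.27), Nkd2 (1.52) and Lgr5 (1.70) were higher. Nkd1 was at 18.7, 20.0 and 24.0 CPM in null and 1.70, 2.36 and 2.43 CPM in floxed cells. Axin2, the most general target, was at 204, 202 and 210.4 CPM against 167, 164 and 178 CPM, a log2 fold change of 0.28 that passed the p threshold (adjusted p = 6.3e-05, edgeR) and not that of fold change. Kremen1 (0.95), Znrf3 (0.78) and Sfrp1 (-0.87) did not reach the fold threshold. Lef1 had a value of -0.08, with overlapping groups, and Notum one of 0.04. Ctnnb1, which encodes β-catenin, stood at 0.34.

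The Nodal and BMP genes showed 12 higher and 1 lower of 30 tested, with a median of 0.63. Lefty1, a secreted Nodal inhibitor, was at 109, 95.7 and 75.2 CPM in null and 9.99, 12.4 and 15.3 CPM in floxed cells (log2 2.88 ± 0.14 SE, adjusted p = 7.8e-09, edgeR); 17.8% of its longest transcript matches Lefty2, so reads may be shared. Bmp7 stood at 3.61, Tgfbr2 at 3.59, Id2 at 1.97 and the Activin antagonist Fst at 1.50. Nodal itself was at 272, 266 and 259 CPM against 132, 166 and 176 CPM, a log2 fold change of 0.76. Of 14 FGF ligands and receptors 6 were higher (4 without replicate 1, and by DESeq2), Fgf8 and Fgf5 among them, and 1, Fgf4, was lower. The receptors Fgfr1 and Fgfr2 had values of 0.25 and 0.59 and were not called.

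Interferon-responsive genes and the antigen presentation pathway were higher. Guanylate-binding proteins (Gbp) and immunity-related GTPases attack intracellular parasites, and the immunoproteasome, the Tap transporter, tapasin and β2-microglobulin load peptides on MHC class I. Of 45 genes listed 33 were tested, 22 were higher and 2 lower, and the median was 1.84. Gbp2 was at 46.6, 55.3 and 56.0 CPM in null and 1.12, 1.69 and 1.66 CPM in floxed cells (log2 5.14 ± 0.10 SE, adjusted p = 8.6e-12, edgeR), and Gbp2b was at 43.2, 44.7 and 45.1 CPM against 0.903, 1.38 and 1.55 CPM (log2 5.11). Neither shares a stretch of 75 bases at 95% identity with another gene's transcript. Gbp3 and Gbp7 stood at 4.08 and 4.25, and these 4 genes lie in a row on chromosome 3 between positions 142530342 and 142638008.

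Antigen presentation genes rose along the pathway. The immunoproteasome subunits Psmb8, Psmb9 and Psmb10 had log2 fold changes of 5.38, 3.00 and 1.19, the peptide transporter genes Tap1 and Tap2 of 3.51 and 3.55, and tapasin (Tapbp) of 2.53. B2m, the invariant light chain, was at 41.9, 36.7 and 36.7 CPM in null and 8.50, 7.12 and 8.17 CPM in floxed libraries (log2 2.27 ± 0.08 SE, adjusted p = 4.8e-10, edgeR). The heavy chain genes H2-K1 and H2-D1, which are close paralogs whose reads may be shared, had 2.07 and 2.04. The sensors did not go together: Ifih1 and Oasl2 were higher at 2.33 and 3.65, while Ddx58 and Oas1a were lower at -1.20 and -1.10; without replicate 1 Oas1a was at -0.92 and was not called. Irf1, a factor that carries interferon signals, stood at 0.89, short of the fold threshold.

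Promoters of this list were searched for the letters GAAANNGAAA, the repeated core bound by interferon regulatory factors, on both strands of windows that run from 250 bases before to 50 bases after each start site (RefSeq, GRCm38.p6). The letters occur in 3.44% of all 32851 windows. Counted by gene, in any of its windows, they occur in 3.39% of the 10824 genes tested that have a window. The shares are 3.82% for genes called higher and 4.78% for those called lower. Among the 28 tested list members with a window, 16 held them: 11 of the 19 called higher, both of those called lower and 3 of the 7 not called. The list is made of genes known to respond to interferon, so the share describes the list and not the change. Stretches of 5 members called higher and of Oas1a, called lower, are given because they show the element and its distance from the start; capitals mark the matching letters, on either strand.
Gbp2 (chr3:142620579-142620638, plus strand): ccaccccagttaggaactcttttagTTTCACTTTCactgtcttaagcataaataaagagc
Gbp2b (chr3:142594685-142594744, plus strand): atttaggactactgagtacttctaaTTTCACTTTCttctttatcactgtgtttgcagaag
Gbp3 (chr3:142559974-142560039, plus strand): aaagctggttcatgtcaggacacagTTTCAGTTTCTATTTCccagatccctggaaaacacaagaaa
B2m (chr2:122147523-122147582, plus strand): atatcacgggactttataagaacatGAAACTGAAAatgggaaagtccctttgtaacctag
Isg15 (chr4:156200850-156200921, minus strand): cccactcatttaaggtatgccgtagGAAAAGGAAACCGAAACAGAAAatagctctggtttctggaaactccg
Oas1a (chr5:120907526-120907570, minus strand): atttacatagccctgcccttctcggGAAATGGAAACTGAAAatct

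The first matching base lies 59 bases before the start in Gbp2, 137 in Gbp2b, 45 in Gbp3, 139 in B2m, 78 in Isg15 and 20 in Oas1a. Isg15, the ubiquitin-like interferon product, had 111 counts over the null and 3 over the floxed libraries, a ratio of 34.2 with a counting interval of 11.4 to 168. The same windows were searched for TNAAGGTCA, the extended half-site that Esrrb binds. It occurs in 1.28% of all windows. Counted by gene, it occurs in 0.89% of the genes tested that have a window. The shares are 0.96% for genes called lower (4 of 418), near that of all tested, and 0.48% for genes called higher (7 of 1466). None of the 19 naive pluripotency genes with a window held it. In all 12 patterns were searched, and a window of this length holds no distant enhancer.

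Keratins of simple epithelia were higher. Of 5 tested, 4 were higher and 1 lower. Krt19 was at 99.0, 114 and 113 CPM in null and 2.13, 2.77 and 3.26 CPM in floxed cells, a 39.9-fold rise (log2 5.32 ± 0.08 SE, adjusted p = 9.1e-13, edgeR). The partners Krt8 and Krt18, which form one filament, were at 209.6, 102 and 104 CPM against 6.16, 2.92 and 3.78 CPM and at 85.2, 39.5 and 42.2 CPM against 2.66, 2.36 and 2.85 CPM. In both genes null library 1 had the highest level. Krt8 shares 51.8% of its longest transcript with other genes, a pseudogene among them. Krt7 stood at 4.29 and Krt23 was the one lower, at -2.33.

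Tight junction and apical polarity genes followed in part. Of 39 tested, 14 were higher (11 without replicate 1, 12 by DESeq2) and 1, Jam2, lower, with a median of 0.54. The claudins Cldn3, Cldn4, Cldn6, Cldn7 and Cldn9 had log2 fold changes between 1.29 and 1.78, occludin (Ocln) 1.04, cingulin (Cgn) 1.45, and the tight junction protein Marveld3 3.38. Of the polarity complexes, Patj was at 61.6, 50.6 and 53.9 CPM in null and 7.33, 6.81 and 7.09 CPM in floxed cells (log2 2.96 ± 0.07 SE, adjusted p = 5.7e-11, edgeR), Crb2 stood at 3.74 and Pard6g at 1.40, while Pard3 (0.83), Tjp1 (0.54) and Crb3 (0.43) were not called. Ezrin (Ezr), which links membrane and actin, had a value of -0.46.

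Of 22 genes of adherens junctions and desmosomes 4 were higher (18.2%, against 13.5% of all genes) and 1 lower. E-cadherin (Cdh1) was at 881, 774 and 765 CPM against 619.7, 613 and 617 CPM, a log2 fold change of 0.38. The desmosomal genes Dsp, Dsc2 and Pkp3 were higher at 3.31, 4.53 and 1.74, and vinculin (Vcl), which anchors actin at adhesions, at 1.08. Vcl overlaps another gene over 25.5% of its exon bases, and the counting ignored strand. The 4 candidates that the study itself selected for the epithelial programme, a choice made on these samples and so no independent evidence, were split: Arl4c (1.33) and Krt18 (4.36) were higher, Ntn1 (-1.78) and Spry2 (-1.14) lower. Ntn1, the guidance cue netrin-1, was at 71.9, 95.8 and 92.7 CPM in null and 331, 272 and 292 CPM in floxed cells. Without replicate 1 the value of Spry2 was -0.99.

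Of 32 genes of basement membrane and matrix 16 were higher and 1 lower, with a median of 1.00. Type IV collagen, the network-forming collagen of basement membranes, was higher: Col4a1 was at 77.2, 59.3 and 61.6 CPM in null and 13.1, 13.9 and 14.5 CPM in floxed cells (log2 2.24), and Col4a2 stood at 3.27. The laminin chain Lamb3 of the epithelial form was higher at 2.81, while the chains of laminin-111, Lama1, Lamb1 and Lamc1, had values of -0.39, 0.88 and -0.57 and Fn1 one of -0.64. Nidogen-1 (Nid1) was lower at -1.01, a call lost without replicate 1 (-0.99) and with total count scaling. Of the lysyl oxidases, which crosslink collagen, Loxl4 described above and Loxl1 (1.91) were higher and Loxl2 had a value of -0.55; the proteases Mmp14 and Mmp15 were higher at 1.22 and 1.67. Timp2, an inhibitor of such proteases, had 288 counts over the null and 8 over the floxed libraries, a ratio of 33.3 with a counting interval of 16.7 to 77.9.

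The receptors for this matrix were divided. Of 14 integrins 4 were higher, namely Itga3 (3.00), Itgb4 (2.72), Itga5 (1.13) and Itga2b (1.17), and 3 were lower, Itga6 (-1.01), Itga9 (-1.02) and Itgb7 (-1.05). Itga3 was at 40.4, 40.3 and 39.1 CPM in null and 2.98, 6.05 and 6.00 CPM in floxed cells. The 3 lower calls lie close to the threshold, and without replicate 1, or with total count scaling, none of them was called.

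Actomyosin and focal adhesion genes were more often higher, with 16 of 42 tested higher and 1 lower and a median of 0.68. Filamin C (Flnc) was at 109.7, 82.1 and 91.9 CPM in null and 6.59, 7.43 and 8.28 CPM in floxed cells (log2 3.66 ± 0.10 SE, adjusted p = 8e-11, edgeR). Myl9, a myosin light chain, stood at 4.75, the calponin Cnn2 at 2.86, the tropomyosin Tpm1 at 1.90, caldesmon (Cald1) at 2.09, nonmuscle myosin Myh10 at 2.06 and the GTPase Rhob at 3.43. Rhob was at 89.6, 57.2 and 62.0 CPM against 5.10, 7.27 and 6.67 CPM. Cdc42ep3 was the one lower, at -1.79.

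Targets of Yap and Tead, which respond to cell shape and adhesion, were higher for 10 of 20 tested and lower for none (none by DESeq2 either, and 3 lower at an unadjusted p under 0.05), with a median of 0.95. Gadd45a was called lower without replicate 1 (-1.05) and Axl without replicate 3 (-1.02). Ccn1 (Cyr61) was at 231, 148 and 151 CPM in null and 47.2, 40.2 and 39.5 CPM in floxed cells (log2 2.04), Igfbp3 stood at 2.39 and Ptpn14 at 1.41. Ankrd1 had no count in any floxed library and was at least 7.74-fold higher, against 3 counts per library. Ccn2, as well known a target as Ccn1, was at 91.3, 61.3 and 59.9 CPM against 78.8, 72.2 and 69.3 CPM (log2 -0.07, adjusted p = 0.42, edgeR), with overlapping groups. Yap1 itself had a value of 0.04.

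Genes of the ERK list, which holds feedback inhibitors and early response genes, went both ways. Of 30 tested 9 were higher and 2 lower. The Sprouty genes Spry2 and Spry4, inhibitors of receptor tyrosine kinase signals, were the 2 lower (-1.14 and -1.26), and the ETS factor gene Etv4 had a value of -0.85. The phosphatase Dusp4, which inactivates ERK, was higher at 1.29, Dusp5 at 1.10 and Spred3 at 1.58, and Dusp6 had 0.41. Of the AP-1 genes, Jun was at 57.4, 31.4 and 32.5 CPM in null and 4.14, 2.46 and 2.07 CPM in floxed cells (log2 3.80 ± 0.10 SE, adjusted p = 6e-11, edgeR), Fosl2 stood at 4.57 and Junb at 1.99. Fos, at 0.92, and Egr1, at -0.30, were not called.

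Jun, Junb and Fosb are also in a list of genes that tissue dissociation induces, of which 7 of 16 were higher and 1 lower. The level of that list summed over its genes was 2991 to 3113 CPM in null and 3781 to 3963 CPM in floxed libraries, so the sum lay on the other side from the calls. Its part in the AP-1 values was not tested.

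Genes of growth arrest and death were read against the 13.5% of all genes called higher. Of 28 targets of p53 6 (21.4%) were higher and none lower (none by DESeq2 either, and 7 lower at an unadjusted p under 0.05), with a median of 0.19. Cdkn1a (p21), an inhibitor of cyclin-dependent kinases, was at 589.6, 478 and 489 CPM in null and 229.5, 205 and 209 CPM in floxed cells (log2 1.27 ± 0.04 SE, adjusted p = 4.1e-10, edgeR). Perp, a desmosomal target of p53, stood at 3.59, Btg2 at 2.34, Trp53inp1 at 1.33 and Ccng1 at 1.00. Of 34 regulators of apoptosis 8 (23.5%) were higher and none lower (none by DESeq2 either, and 7 lower at an unadjusted p under 0.05), led by the death receptor Tnfrsf1a (3.04) and with Bik at 2.56; without replicate 2 the 8 were 5. Of 24 cell cycle genes 3 (12.5%), Ccnd2 (2.83), Cdkn1c (2.53) and Cdkn1a, were higher and Mycn, a growth-promoting factor of ES cells, was lower, at 43.3, 73.4 and 62.9 CPM against 257, 278 and 281 CPM (log2 -2.21). Cdkn1c overlaps a neighbouring gene over 30.7% of its exon bases, and the counting ignored strand.

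None of the 45 nuclear genes of the respiratory chain was called by edgeR or DESeq2, yet 42 were lower and none higher at an unadjusted p under 0.05, and 44 of the 45 had a negative log2 fold change and the median was -0.29; with total count scaling the median was -0.18. The class of genes with the highest mean CPM had a median of -0.17 in the same fit. In glycolysis 1 of 26 was higher (3.85%) and 2 lower (7.69%), against 13.5% and 4.24% of all genes. The enolase gene Eno3 was the one higher, at 52.7, 27.7 and 30.1 CPM in null and 9.09, 10.6 and 12.1 CPM in floxed cells (log2 1.75). Pfkp, the platelet form of phosphofructokinase, was at 41.0, 62.3 and 58.5 CPM in null and 226, 301 and 283 CPM in floxed cells (log2 -2.33 ± 0.05 SE, adjusted p = 2.2e-11, edgeR). Ldha stood at -1.04, a call lost without replicate 3 and with total count scaling, and 55.0% of its longest transcript matches pseudogenes.

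Markers of other lineages were read for what else the null cultures could hold. Trophoblast markers gave 11 higher and 3 lower of 20 tested, with 8 higher without replicate 1 and 9 without replicate 3. Their summed level was 1579.9 to 2109 CPM in null and 605 to 871 CPM in floxed libraries. Most of that sum was the imprinted gene Peg10, at 1555, 1177 and 1434 CPM against 459, 731 and 717 CPM, and 4 of the 11 were the keratins described above. Prl3d1, Tpbpa and Ctsq, which define placental trophoblast, had no count in any of the 6 libraries. Cdx2 (1.11) and Gata2 (3.30) were higher, and Tfap2a was lower (-2.18).

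Of 11 markers of primitive and visceral endoderm 3 were higher and 2 lower; without replicate 2, and by DESeq2, 1 was higher. Gata6 did not reach the filter and Ttr had no count, while Gata4, at 1.07, 1.58 and 1.39 CPM against 0.797, 0.359 and 0.517 CPM, was called (log2 1.27) but not by DESeq2. Of 9 neurectoderm markers tested 2 were higher (1 without replicate 3, and by DESeq2) and 4 lower, with the intermediate filament gene Nes at 205, 208 and 209 CPM against 22.3, 34.9 and 35.7 CPM (log2 2.75) and the homeobox gene En1 at -3.83. Of 5 definitive endoderm markers none was higher by edgeR or DESeq2 or at an unadjusted p under 0.05, and 1, Sox7, was lower. In the fibroblast list 4 of 10 were tested and Col1a2, Pdgfrb and Dcn were higher and Thy1 lower (-1.88), at a summed list level of 10.9 to 13.9 CPM, against 18.5 to 26.8 CPM in floxed libraries. Markers of 2-cell-like cells were not tested because none passed the filter, with summed levels under 1 CPM in every library.

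Withdrawal of CH from E14 cells was set beside these changes, since it lowers Esrrb as well: Esrrb was at 322 CPM on average in CH and 15.2 CPM in DMSO (log2 -4.61). The lines, the culture times (24 h and 48 h) and the depths differ, and the groups share no library. In a joint fit of the 12 libraries 1909 of 16200 genes (11.8%) were higher in DMSO than in CH and 1477 (9.12%) lower. Of the 2005 genes higher in Esrrb null cells 700 were higher in DMSO, which is 34.9% of them and 44.4% of the 1576 genes higher in DMSO that both fits tested. Another 257 were lower in DMSO, 12.8% of the 2005 and 19.2% of the 1340 lower in DMSO. Of the 632 genes lower in Esrrb null cells 245 were lower in DMSO, 38.8% of them and 18.3% of the 1340. Another 62 were higher in DMSO, 9.81% of the 632 and 3.93% of the 1576. The difference between both effects, tested as an interaction, was called for 1842 genes in the positive direction (11.4%) and 1126 in the negative (6.95%); without replicate 2 these were 1181 and 697. All 257 and all 62 genes that moved in opposite directions were among those calls. Opposite calls already place the difference beyond the fold threshold, so this result was nearly fixed by how the genes were selected. It adds no separate evidence that the directions differ.

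**Figure D5:**
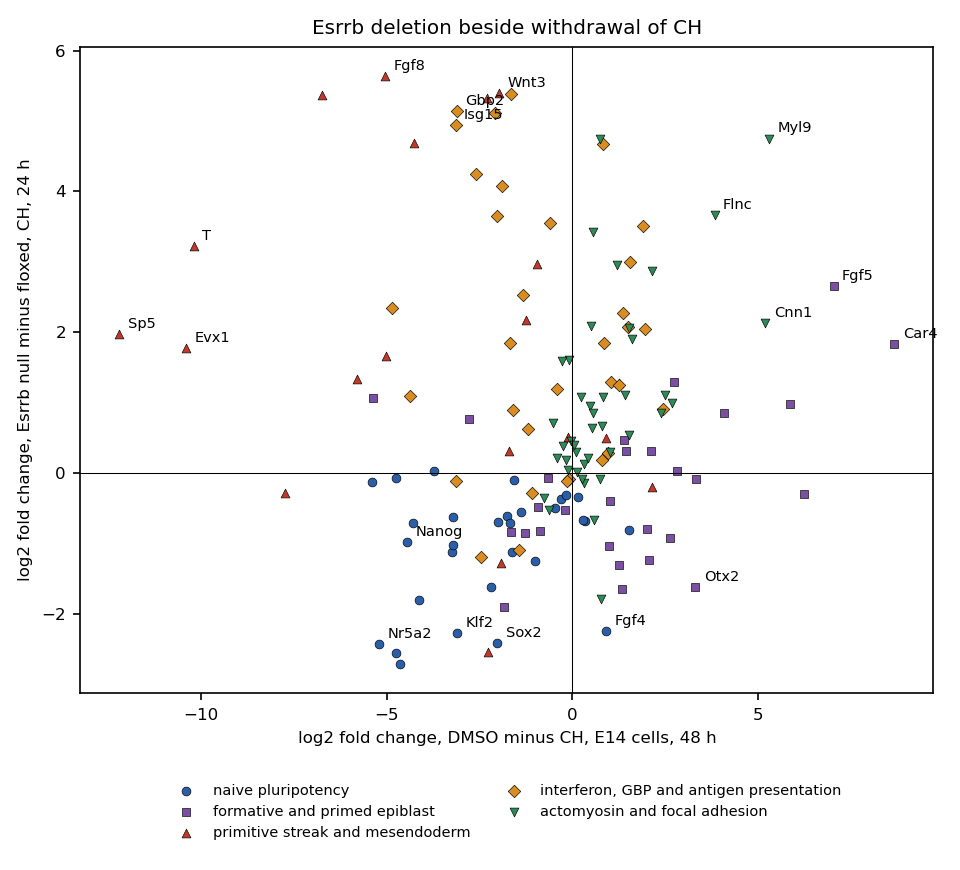
Members of 5 gene lists at their log2 fold change between DMSO and CH in E14 cells (x axis, joint fit) and between Esrrb null and floxed cells (y axis); the marker gives the list. Naive genes lie mostly below 0 on both axes and streak genes mostly to the upper left. Actomyosin genes lie to the right of or near 0 and mostly above 0. Formative genes lie mostly to the right, on both sides of 0 on the y axis.

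Of the 30 naive genes, 12 of them lower after Esrrb deletion, 21 were lower in DMSO, with a median of -2.01, and the interaction was called positive for 14 and negative for 3. Klf2 was lower by both routes (-2.28 and -3.11) with an interaction of 0.80 that was not called, Sox2 likewise (-2.42 and -2.02, interaction -0.43). Nanog was at -0.98 and -4.46 and Tfcp2l1 at -0.71 and -4.30, and for both the interaction was called. Fgf4 was the other way, lower after Esrrb deletion (-2.25) with a value of 0.91 on withdrawal and a called interaction of -3.19.

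Of the 20 streak genes 9 were called higher after Esrrb deletion and lower on withdrawal, and 2, Kdr and Bmp4, were lower in both; of the 20 Wnt feedback targets 4 were opposite in this way and 1, Nkd2, was higher in both. T was at 536 CPM on average in CH and 0.467 CPM in DMSO (log2 -10.20), against a rise of 3.22 after Esrrb deletion, and Sp5 and Evx1 showed -12.21 and -10.41 against 1.97 and 1.77. Of the 20 streak genes 13 were lower on withdrawal, and the interaction was called positive for 14. Levels of T in Esrrb null cells, 313 to 448 CPM, were of the order of those of E14 cells in CH, while Esrrb floxed cells in the same inhibitor had 36.5 to 46.5 CPM. Wnt3 was at 2.24 CPM and Wnt6 at 0.453 CPM on average in E14 cells in CH, both below their values in Esrrb null cells.

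The interferon list had a median of -1.09 on withdrawal, with 8 genes higher and 17 lower, against 1.84 after Esrrb deletion, and the interaction was called positive for 19 of 33. Of the 22 members higher after Esrrb deletion, 11 were lower on withdrawal, 7 were higher and 4 were not called. Gbp2 stood at 5.14 and -3.11, whereas Tap1 (3.51 and 1.90) and B2m (2.27 and 1.37) were higher in both. Formative genes were called higher on withdrawal for 18 of 28, with a median of 1.42, and the interaction was called negative for 18: Otx2 was at -1.62 and 3.32, and Fgf5 rose by both routes, at 2.65 and 7.05. Of the 42 actomyosin genes 13 were higher and none lower on withdrawal, with a median of 0.55, 9 of them were higher in both comparisons, and the interaction was called for 13 of the 42. Krt18 (4.36 and 5.90), Krt8 (5.01 and 3.58), Col4a1 (2.24 and 2.56) and Flnc (3.66 and 3.84) were higher in both comparisons, whereas Krt19 was higher after Esrrb deletion and had a value of 0.18 on withdrawal.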

How the data were processed

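RNA-seq libraries of 6 Esrrb fl/fl samples were compared, with 6 E14 samples (CH and DMSO) in a joint fit. The values are raw counts per gene as deposited by the authors, who aligned reads to mm10 with TopHat2 and counted them on Ensembl genes of GRCm38 with HTSeq, without regard to strand. The report gives the totals of the 6 libraries, and the TMM factors averaged 1.04 in null and 0.963 in floxed libraries. No column of fold changes or p-values was used.

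Symbols, positions and exon lengths came from GENCODE M21, which held 49412 of the 49671 gene identifiers. Genes were filtered by filterByExpr and tested with edgeR 4.0.16 (R 4.3.3, limma 3.58.1) by the quasi-likelihood test, with TMM scaling and the replicate number as block, which left 2 residual degrees of freedom. The filter keeps a gene with enough counts in 1 group alone. In every list, members nearly absent from floxed libraries thus entered only through the null group. Calls needed a Benjamini-Hochberg adjusted p under 0.01 and an absolute log2 fold change over 1. The interaction used the 12 libraries with the replicate number within each line as block. CPM values use TMM-adjusted library sizes, and CPM per kb divides them by the exon length of the gene. Standard errors (SE) belong to the fitted log2 fold changes. Where floxed counts were at most 8 in sum, the ratio of summed counts is given with an exact interval, which covers counting error only.

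The labels number replicates alike in both groups but do not say that a number marks a shared culture. Deviations from the group means correlated between libraries of the same number, at 0.56, 0.39 and 0.38 over 10298 genes. The mean for different numbers was -0.18, which follows from the positive values because deviations within a group cancel. Numbers 2 and 3 also correlated with each other (0.43 and 0.32), so the values set apart number 1 and do not show that 2 and 3 are paired. The block is part of the main test. The labels do not name separate cultures, so p-values measure the spread between these samples, which may be technical.

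Gene lists, their members and the genes named were chosen with earlier results of these data known. Named genes are Esrrb, the 12 largest rises and 12 largest falls among called genes whose count averaged 100 or more and whose groups were separate, 8 genes of the study, and from each list up to 4 called members of smallest p with members needed to describe it; other genes were chosen after their values were seen. Sequence shared with other genes was sought with blastn 2.17.0 (at least 75 bases at 95% identity), and 113 of 142 named genes had none. Promoters were RefSeq windows, found for 107 of the 142. DESeq2 1.42.0, other scalings, filters and thresholds, the joint fit, the fit without block and each replicate left out were the alternatives. The scripts were tested on simulated counts. Some list members are not reported here.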

Additional observations from a re-analysis of the deposited data

How the results depend on the processing

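Under the alternatives the calls between Esrrb null and floxed cells kept their excess of higher genes. The counts, higher and lower, were 1909 and 576 without the replicate block (2482 of the 2637 calls shared), 1981 and 649 with DESeq2 size factors, 2255 and 491 with total count scaling, 2195 and 688 with no filter beyond 1 count, 1691 and 505 with DESeq2 (2185 calls shared), 1897 and 598 in the joint fit, and 1907 to 1987 and 574 to 640 when a replicate was left out. They moved by more than 1.5 times with at least 10 counts in every library (1331 and 417, fewer genes being tested), with glmTreat against a log2 fold change of 1 (1090 and 254) and with no minimum fold change (4457 and 3935). The log2 fold change of Esrrb ran from -1.08 to -0.83 when a replicate was left out, and passed the fold threshold without replicate 2 (-1.08) or 3 (-1.03). The interaction gave 1181 to 1794 higher and 697 to 1139 lower with a replicate left out, fewest without replicate 2, and 1429 and 869 without the block; withdrawal of CH gave 1403 to 2078 and 1083 to 1519, and 1671 and 1319 without the block. The cause of these shifts was not tested. Of the 142 named genes none changed direction under any of these alternatives, 15 lost their call under at least 1 of them and 2, Esrrb and Nanog, gained one. Without the block the calls of Hoxb1, Dapk1, Zeb2 and Amn were lost among the named genes. Depth limits the genes with few counts in the floxed libraries, whose ratios have wide counting intervals.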

Other observations

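Of 19 germline genes tested 8 were higher (6 without replicate 1) and 2 lower, and their median on the log2 scale was 0.61, where that of all genes tested was 0.00. Tex15, which acts in meiotic recombination and transposon silencing of male germ cells, was at 212, 206 and 213 CPM in Esrrb null and 78.9, 82.1 and 78.1 CPM in floxed libraries (log2 1.40 ± 0.04 SE, edgeR). Tdrd1 and Tdrkh, Tudor proteins of the piRNA pathway, stood at 2.00 and 2.49, and the helicase gene Ddx4 at 1.06. The 2 lower genes, Rpl10l (-1.14) and Hormad1 (-1.09), match other genes over 62.5% and 65.9% of their longest transcript. Of 8 primordial germ cell markers Nanos3 was higher (2.32) and the receptor gene Kit lower (-1.37), 12.5% each, against 13.5% and 4.24% of all genes.

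Notch genes were divided between ligands. Of 15 tested 6 were higher and 2 lower. Dll3 was at 25.3, 42.2 and 42.5 CPM in null and 2.13, 3.48 and 4.04 CPM in floxed libraries (log2 3.51), and Dll1 stood at 1.10, while Jag1 was lower, at 12.1, 17.3 and 17.4 CPM against 70.2, 55.8 and 60.9 CPM. The receptor Notch3 (1.94) and the factors Hes1 (1.53) and Hes6 (2.17) were higher, and Notch4 was lower (-1.81). Of 17 Eph receptors and ephrins 7 were higher and none lower (none by DESeq2 either, and 3 lower at an unadjusted p under 0.05), led by Efnb1 at 22.3, 20.3 and 26.1 CPM against 1.17, 0.768 and 1.24 CPM (log2 4.43). Of 19 regulators of the epithelial-mesenchymal transition (EMT) Foxc1, Snai2 (2.60), Zeb2 (1.61) and Twist1 (1.32) were higher and the epithelial factors Ovol1 (-1.95) and Grhl2 (-1.24) lower. These are 21.1% and 10.5% of the list, against 13.5% and 4.24% of all genes. By DESeq2 4 were higher and 1, Grhl2, was lower. The groups overlapped for Zeb2, and without the replicate block its adjusted p was 0.019 (edgeR). Snai1 had a value of 0.31. Foxc1 had 74 counts over the null and 2 over the floxed libraries, a ratio of 34.2 with a counting interval of 9.14 to 288. Of 7 genes of retinoic acid metabolism Stra6 (2.51) and Rdh10 (1.37) were higher and Crabp1 (-1.55) and Aldh1a3 (-1.02) lower. Of 17 genes of DNA methylation Mbd2 was higher (1.45) and Tet2 lower (-1.13), a call lost without replicate 1 (-0.98). Each is 5.88% of that list. Of 19 nuclear receptors and Esrrb partners Nr2f2 was higher (2.94), 5.26% of the list, and Nr5a2 and Nr0b1 lower, 10.5%. Of 6 AP-2 and GATA factors 2 were higher (1 by DESeq2) and 1 lower. The imprinted RNA gene H19, chosen after its values were seen, was at 14.6, 9.62 and 12.1 CPM against 1.22, 1.64 and 2.33 CPM (log2 2.79).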
